A study of Mus musculus with 6 samples.

Results

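The heat shock proteins and molecular chaperones measured here were 77 genes of the 18193 represented on the arrays. They were taken by gene symbol, as the Hsp70 and Hsp110 genes (Hspa and Hsph1), the small heat shock proteins (Hspb), the Hsp90 genes, the mitochondrial chaperonin pair (Hspd1 and Hspe1), the J-domain proteins (Dnaja, Dnajb and Dnajc) and the cytosolic chaperonin subunits (Cct). The rule used symbols alone, though it was chosen with earlier results of these data known. Of 79 protein-coding RefSeq genes whose symbols fit, Dnajc19 was read only by probe sets assigned to several genes and Hsp90ab1 was not analysed here.

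The samples were neuralized embryoid bodies, which are suspended aggregates of mouse embryonic stem cells directed towards neural fates. All of them came from 1 stem cell line that carried a Gli1-FLAG transgene driven constitutively from the Rosa26 promoter, so hedgehog-pathway transcription factor Gli1 was also supplied in the controls. After 2 days in suspension, 3 RA + Ag1.3 cultures received 500 nM all-trans retinoic acid and 50 nM of Ag1.3, an agonist of the hedgehog signal transducer Smoothened, for 3 days. The 3 RA cultures received 500 nM all-trans retinoic acid alone for the same 3 days. Each RA + Ag1.3 culture had an RA culture grown in parallel, which gave 3 pairs numbered by the labels, and each culture was read on 1 array. The labels do not say that the pairs came from separate thaws or clones, so p-values describe the spread between these parallel cultures of 1 line.

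Chaperones bind unfolded or partly folded proteins and keep them from aggregating, and several use ATP to release them for folding. Small heat shock proteins hold clients without ATP, J-domain proteins deliver clients to Hsp70 and start its ATP cycle, Hsp110 proteins exchange its nucleotide, and Hsp90 and the chaperonins act on later folding steps. Many are induced together by heat shock factors, which bind arrays of the unit GAA and its reverse complement TTC in promoters, while the chaperones of the endoplasmic reticulum answer to a separate stress pathway through a promoter motif called ERSE.

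The promoter sequences of 4 members are shown because they carry the motifs of the heat shock and endoplasmic reticulum stress pathways, Hspb1 first as the member called below. Each is the stretch of 250 bases before the annotated start, from RefSeq on GRCm38.p6. Hspb1 lies at chr5:135887669-135887918 on the plus strand, Hspa1a at chr17:34972157-34972406 on the minus strand, Hspe1 at chr1:55087898-55088147 on the plus strand and Hspa5 at chr2:34771840-34772089 on the plus strand. Capitals mark paired heat shock units (GAANNTTC or TTCNNGAA) in the first 3, and the ERSE (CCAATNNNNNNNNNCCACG) in Hspa5.
Hspb1: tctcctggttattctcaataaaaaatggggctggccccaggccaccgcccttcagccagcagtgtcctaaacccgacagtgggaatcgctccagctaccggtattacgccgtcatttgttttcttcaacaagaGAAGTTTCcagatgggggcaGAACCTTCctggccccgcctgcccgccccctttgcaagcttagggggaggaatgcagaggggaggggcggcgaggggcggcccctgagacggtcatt
Hspa1a: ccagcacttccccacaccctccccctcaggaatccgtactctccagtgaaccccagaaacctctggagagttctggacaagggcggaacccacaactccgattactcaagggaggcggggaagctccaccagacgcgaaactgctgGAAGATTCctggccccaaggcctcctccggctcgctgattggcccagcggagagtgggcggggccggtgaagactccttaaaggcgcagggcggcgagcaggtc
Hspe1: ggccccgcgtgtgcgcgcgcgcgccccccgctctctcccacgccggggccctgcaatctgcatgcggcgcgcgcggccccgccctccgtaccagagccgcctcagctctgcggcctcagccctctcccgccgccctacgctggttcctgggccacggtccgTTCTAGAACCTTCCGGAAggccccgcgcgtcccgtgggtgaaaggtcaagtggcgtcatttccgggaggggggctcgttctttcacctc
Hspa5: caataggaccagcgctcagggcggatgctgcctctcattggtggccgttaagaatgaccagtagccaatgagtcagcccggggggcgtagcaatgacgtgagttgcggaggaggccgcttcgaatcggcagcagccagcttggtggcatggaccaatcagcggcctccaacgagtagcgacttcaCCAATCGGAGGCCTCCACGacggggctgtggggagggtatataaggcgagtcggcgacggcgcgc

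The Hspb1 stretch held the paired unit at 2 places, whose first bases lay 117 and 97 bases before the start. Hspa1a held 1 paired unit, 104 bases before its start. In Hspe1 overlapping pairs formed a continuous array from 89 bases before the start, and of 2 RefSeq promoter windows of Hspd1, on the opposite strand, one shared 285 bases with that of Hspe1 and the other 4. The full windows of 250 bases before and 50 after the start were available for 64 of the 77 members. Both strands were searched, and GAANNTTC and TTCNNGAA can overlap. The first was found in 15 of 64 members (23.4%) and in 9.04% of 27025 genes. The second was found in 8 of 64 members (12.5%) and in 9.60% of those genes, and either was found in 19 members (29.7%) and 17.0% of genes. An array of 3 units (GAANNTTCNNGAA or its reverse complement) was present for 4 members (6.25%), Dnajb6, Hspd1, Hspe1 and Hsph1, against 0.662% of genes. The ERSE was present for 3 members (4.69%), Dnajc3, Hsp90b1 and Hspa5, against 0.137% of genes. These matches describe letters in a window and do not show binding.

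Of the 77 chaperone genes, each read by 1 chosen probe set, 1 was called as changed with Ag1.3. Hspb1 was lower (limma, p adjusted by Benjamini-Hochberg over all 18193 genes, threshold 0.05), and none was called higher. Over all genes, 1.39% were called in either direction and 0.313% were called lower. At an unadjusted p under 0.05, 7 members passed, of which 6 were lower and 1 higher, which is 9.09% of the members against 14.9% of all genes. The lower ones alone were 7.79% of the members, against 7.68% of all genes. The median log2 fold change was -0.02 for the members and -0.01 for all genes, on the scale of log2(intensity + 16). The median size of the change was 0.07 for the members and 0.10 for all genes. For 72 of 77 members the estimate lay within 0.25 of 0, against 15663 of all 18193 genes. Hspb1 alone exceeded 0.5 in size, against 574 of all 18193 genes. Estimates were below 0 for 46 members and above 0 for 31, against 9437 and 8756 of all genes. They were lower in all 3 pairs for 23 members (29.9%), against 19.5% of all genes, and higher in all 3 pairs for 8 (10.4%), against 17.2% of all genes. The direction of small changes depends on the level taken as equal on the arrays, and its part in these shares was not tested. Scaled to the spikes, the medians were -0.20 for the members and -0.16 for all genes. At that scaling 7 of 77 members were called in either direction, against 1686 of all 18193 genes. The 7 were all lower, but how many of the 1686 were lower is not given here. That direction therefore cannot be read as particular to the members. With a variance trend on intensity 3 of 77 members were called, Hspb1, Hspa4 and Hspe1, against 891 of all 18193 genes.

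Median intensities of the 6 arrays ran from 48.68 to 52.55, and log2 values of arrays of the same group correlated across probe sets at 0.982 to 0.992. The hybridization spikes read 0.19 higher on the log2 scale on RA + Ag1.3 arrays, a shift larger than the median change of the members. The 3′ to 5′ signal ratio of actin, a measure of RNA integrity, was 1.33 to 1.63 on RA + Ag1.3 arrays and 1.47 to 1.51 on RA arrays. The number of arrays limits the precision of every value, and standard errors of members ran from 0.07 to 0.20.

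The ranges of the groups separated for few members. Every RA + Ag1.3 array lay below every RA array for Hspa1b, Hsph1, Dnaja2 and Hspd1, 4 of 77 members (5.19%), against 5.35% of all genes. Every RA + Ag1.3 array lay above every RA array for Cct8l1 alone, 1 of 77 members, against 6.45% of all genes. The first share was near that of all genes, and the second was below it. Mean intensities of 8 members were near background in both groups, at or under 20.71, the highest reading of 3 control probe sets that had no matching spike. These were Cct6b, Dnajb13, Dnajb7, Dnajb8, Hspa12b, Hspa1l, Hspb3 and Hspb9, and the other 69 were above it in at least 1 group.

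**Figure D1:**
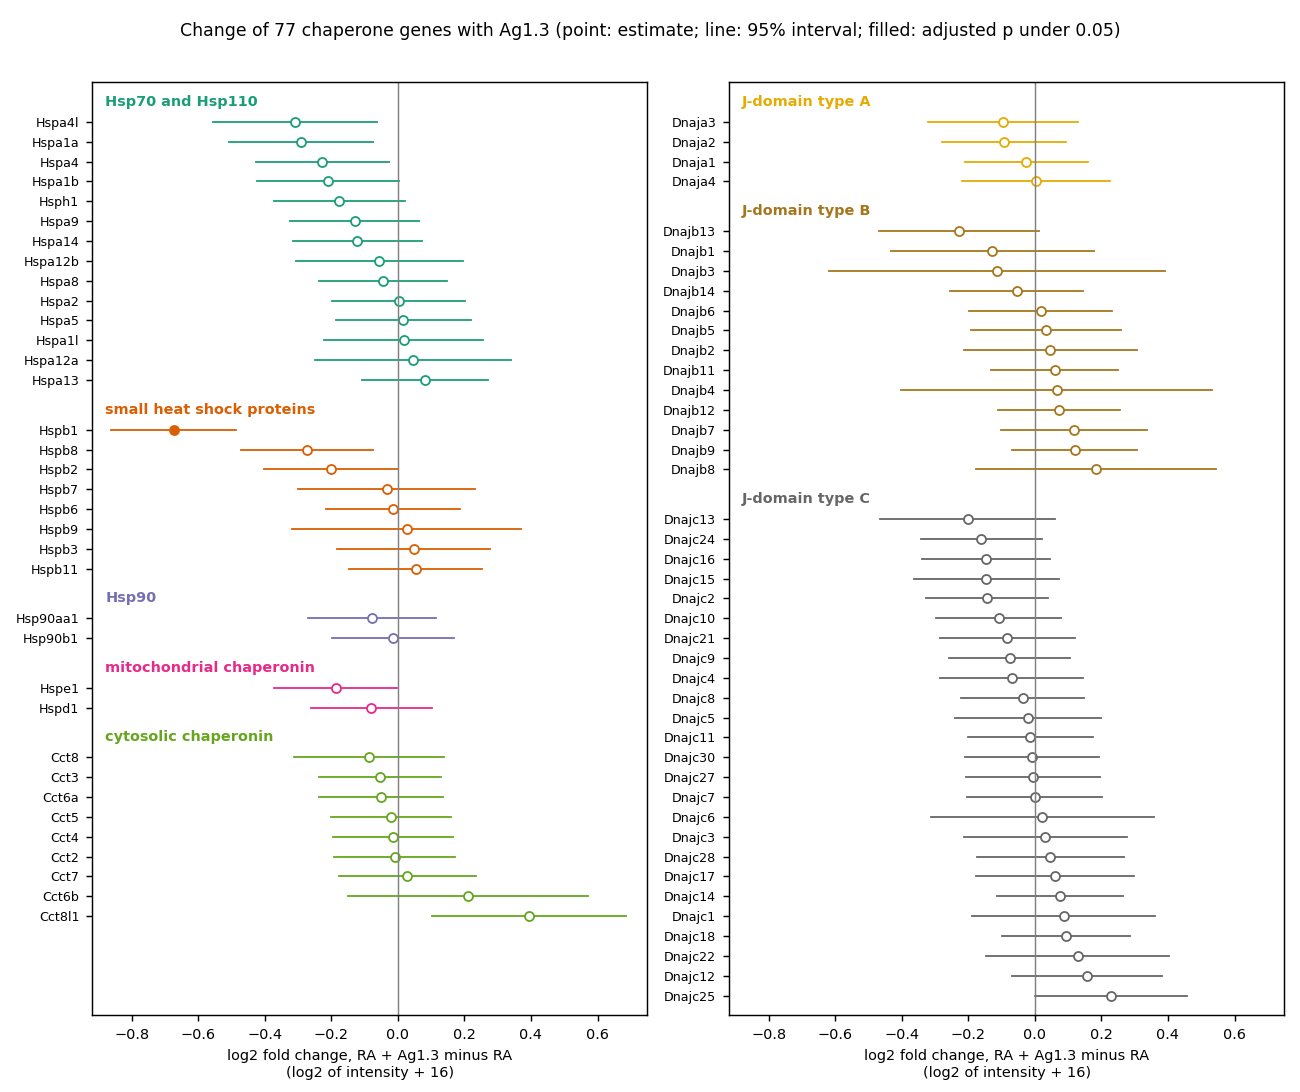
Log2 fold change (RA + Ag1.3 minus RA, log2 of intensity + 16) of each of the 77 chaperone genes, grouped by family, with 95% intervals from limma and filled points for adjusted p under 0.05. Hspb1 at -0.67 is the only filled point, and most intervals span 0.

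Among the small heat shock proteins, Hspb1, an actin-associated holding chaperone also known as Hsp25 in the mouse, read 558, 855 and 1397 on the RA + Ag1.3 arrays of pairs 1 to 3. The RA arrays of the same pairs read 943, 1341 and 2191. RA + Ag1.3 was lower in every pair, yet the groups overlapped, because the pairs differed from each other by more than the treatment difference. The means were 937 ± 426 with Ag1.3 and 1491 ± 637 without it (SD, n = 3 each), and the ratios within pairs were 0.592, 0.638 and 0.638. The log2 fold change was -0.67 (SE 0.07, 95% interval -0.86 to -0.49), 1.60-fold lower with Ag1.3, with an adjusted p of 0.0255 in limma. A further Hspb1 probe set read 459, 691 and 1354 with Ag1.3, against 858, 1189 and 1926 without it. Its log2 fold change was -0.72, and it missed the adjusted threshold (unadjusted p = 0.000555, adjusted p = 0.0555 over all probe sets in limma). The call on Hspb1 rested on the pairing and on all 3 pairs. The adjusted p was 0.812 without the replicate block, and it was 0.182, 0.147 and 0.0872 with pair 1, 2 or 3 left out, with estimates between -0.64 and -0.69.

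The labels call the cells neural progenitors, and all 11 measured markers of that type were above background. Of these, 5 had an unadjusted p under 0.05 in limma, 4 higher and 1 lower, and 1 was called, Notch1, a receptor of progenitor maintenance. It read 1048, 1089 and 690 with Ag1.3, against 726, 634 and 423 without it (adjusted p = 0.0368), and this call was lost without any 1 pair. Sums of the 11 genes were 16580, 15134 and 12771 with Ag1.3, against 16120, 14507 and 10715 without it. In bulk RNA, fewer cells of a type and less RNA per cell cannot be told apart. Of 12 measured markers of pluripotent cells, all had estimates below 0 and 2 were called lower, Dnmt3l and Pou5f1. Pou5f1, the pluripotency factor Oct4, read 121, 209 and 316 with Ag1.3, against 209, 382 and 453 without it. Summed intensities of the 12 genes were 3724, 5405 and 7542 with Ag1.3, against 5836, 8522 and 9898 without it, so this sum and Hspb1 were both lower with Ag1.3 in each pair, and both were lowest in pair 1 and highest in pair 3. Ratios of the sums within pairs were 0.638, 0.634 and 0.762. The number of these 12 called depended on the setting, at 0 without any 1 pair, without the replicate block or with a pseudocount of 1, and 10 with a pseudocount of 64, spike scaling, the filter on dim genes or the variance trend.

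Of 16 markers of endoderm and simple epithelium, 2 were called lower, Sox17 and Krt8. Krt8, a keratin of simple epithelia, read 114, 125 and 332 with Ag1.3, against 208, 191 and 487 without it. The sums of this list were 2118, 2124 and 3853 with Ag1.3, against 2092, 2281 and 4278 without it, and its members Afp and Apoa1 were near background. Estimates were below 0 for 10 of the 16 and above 0 for 6, and 7 had an unadjusted p under 0.05, 5 lower and 2 higher. The higher pair, the basement membrane genes Lama1 and Col4a1, had estimates of 0.50 and 0.38 and were not called (adjusted p = 0.104 and 0.177 in limma). Without any 1 pair, without the block or with a pseudocount of 1, the calls on this list were 0, and with the filter or the trend they were 7. Of 15 neuron markers, 11 were called higher, and their sums were 11438, 9431 and 7883 with Ag1.3, against 4671, 3983 and 2721 without it. The neuron calls numbered 5, 3 and 6 without pair 1, 2 or 3, 6 without the block and 0 with a pseudocount of 1. The part of these cell populations in the Hspb1 result was not tested. None of 13 cardiac and skeletal muscle markers, 9 markers of ciliated cells or 9 of blood and endothelium was called in limma, and 0, 0 and 2 of them had an unadjusted p under 0.05. Actc1, Myh6, Myh7, Myod1 and Tnnt2 of the muscle list and Foxj1, Dnah11 and Spag6 of the ciliated list were near background.

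**Figure D2:**
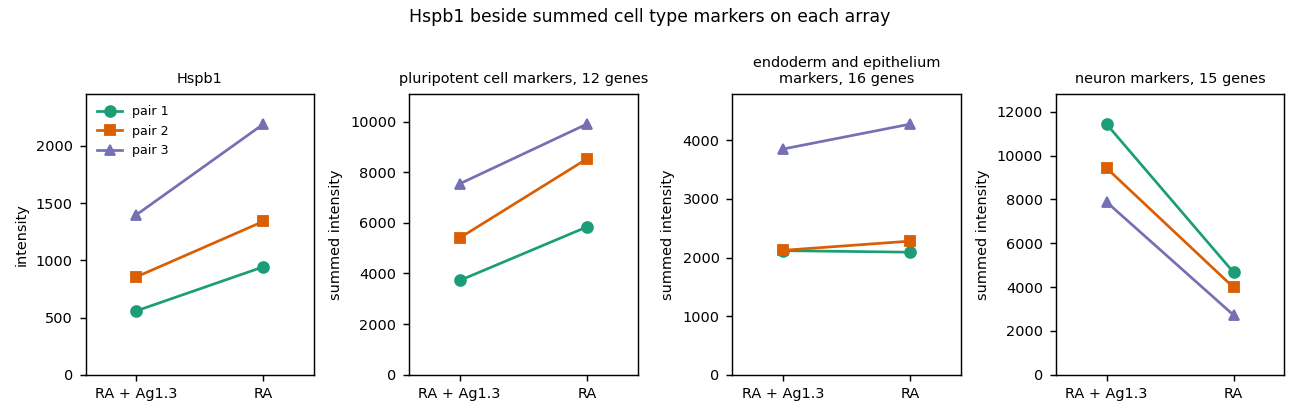
Intensity of Hspb1 and summed intensities of 12 pluripotent cell markers, 16 endoderm and epithelium markers and 15 neuron markers on each array, with RA + Ag1.3 left of RA and lines joining parallel cultures. Hspb1 and the pluripotent sum are lower with Ag1.3 in all 3 pairs and are highest in pair 3, while the neuron sum is higher with Ag1.3 and lowest in pair 3.

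The other 7 small heat shock proteins were not called. Hspb8, which works with the co-chaperone Bag3 in clearing misfolded proteins, read 72.1, 80.2 and 96.7 with Ag1.3, against 98.6, 95.7 and 116 without it. It was lower in every pair, with one Ag1.3 value inside the RA range (log2 fold change -0.27, SE 0.08, unadjusted p = 0.0155, adjusted p = 0.202 in limma). Its further probe sets disagreed in size, at -0.06 and -0.63. Hspb2, a muscle-enriched member, read 20.0, 15.2 and 17.8 with Ag1.3, against 23.0, 19.2 and 26.0 without it, close to the background range (-0.20, adjusted p = 0.335). Hspb11, which in the mouse serves as an intraflagellar transport protein needed for hedgehog signalling in cilia, read 377, 378 and 515 with Ag1.3, against 370, 386 and 458 without it. Its groups overlapped, with a log2 fold change of 0.05 and a 95% interval of -0.15 to 0.25.

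By chosen probe sets, no gene of the Hsp70 and Hsp110 class was called. Of the 14, Hspa1a, Hspa4l and Hspa4 had an unadjusted p under 0.05, all 3 of them lower. The class median was -0.09, with 7 of 14 lower in all 3 pairs. Hspa1a and Hspa1b, the heat-inducible Hsp70 genes, are nearly identical, so a probe set for one may read both. Hspa1a read 33.4, 24.9 and 29.9 with Ag1.3, against 41.7, 31.1 and 46.6 without it (-0.29, SE 0.09, adjusted p = 0.211). Hspa1b read 147, 124 and 149 with Ag1.3, against 180, 156 and 157 without it (-0.21, SE 0.09, adjusted p = 0.341). The values of Hspa1a overlapped between groups and those of Hspa1b did not. The further Hspa1b probe sets gave -0.37 and -0.29, with unadjusted p of 0.014 and 0.0233.

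The 3 Hsp110 genes, which encode exchange factors for Hsp70, all read lower in every pair and none was called. Hspa4l read 183, 184 and 125 with Ag1.3, against 265, 232 and 137 without it (-0.31, SE 0.10, adjusted p = 0.237). Its difference was wide in pairs 1 and 2 and narrow in pair 3, where both cultures were lowest, and its 4 further probe sets ran from -0.53 to -0.10. Hspa4 read 1389, 1423 and 1689 with Ag1.3, against 1508, 1752 and 2035 without it (-0.23, SE 0.08, adjusted p = 0.276), and pair 3, the lowest for Hspa4l, was the highest for it. Hsph1 read 554, 555 and 619 with Ag1.3, against 628, 670 and 659 without it, with no overlap (-0.18, SE 0.08, adjusted p = 0.384).

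The Hsp70 genes that every cell uses showed small differences by their chosen probe sets. Hspa8, the constitutive cytosolic form, read 5106, 5300 and 6093 with Ag1.3, against 5339, 5731 and 5919 without it, with overlapping groups. Its log2 fold change was -0.04, with a 95% interval of -0.24 to 0.15. Hspa9, the mitochondrial Hsp70, read 1321, 1232 and 1417 with Ag1.3, against 1355, 1389 and 1610 without it (-0.13, 95% interval -0.32 to 0.06). Further probe sets of Hspa9 ran from -0.29 to -0.13. The set at -0.29 had no overlap between groups (unadjusted p = 0.0173, adjusted p = 0.243 over all probe sets in limma). A dim set gave -0.27 (unadjusted p = 0.0198, adjusted p = 0.256 over all probe sets in limma). Hspa5, the endoplasmic reticulum form known as BiP, whose ERSE is shown above, read 2327, 2484 and 2834 with Ag1.3, against 2353, 2607 and 2581 without it. Its estimate was 0.02, with a 95% interval of -0.19 to 0.22. By chosen probe sets, Hspa13, a membrane-associated Hsp70 relative, had the highest estimate of the class at 0.08 (-0.11 to 0.27). A further probe set of Hspa12a, described below, gave 0.90, while the chosen probe set of that gene gave 0.05.

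**Figure D3:**
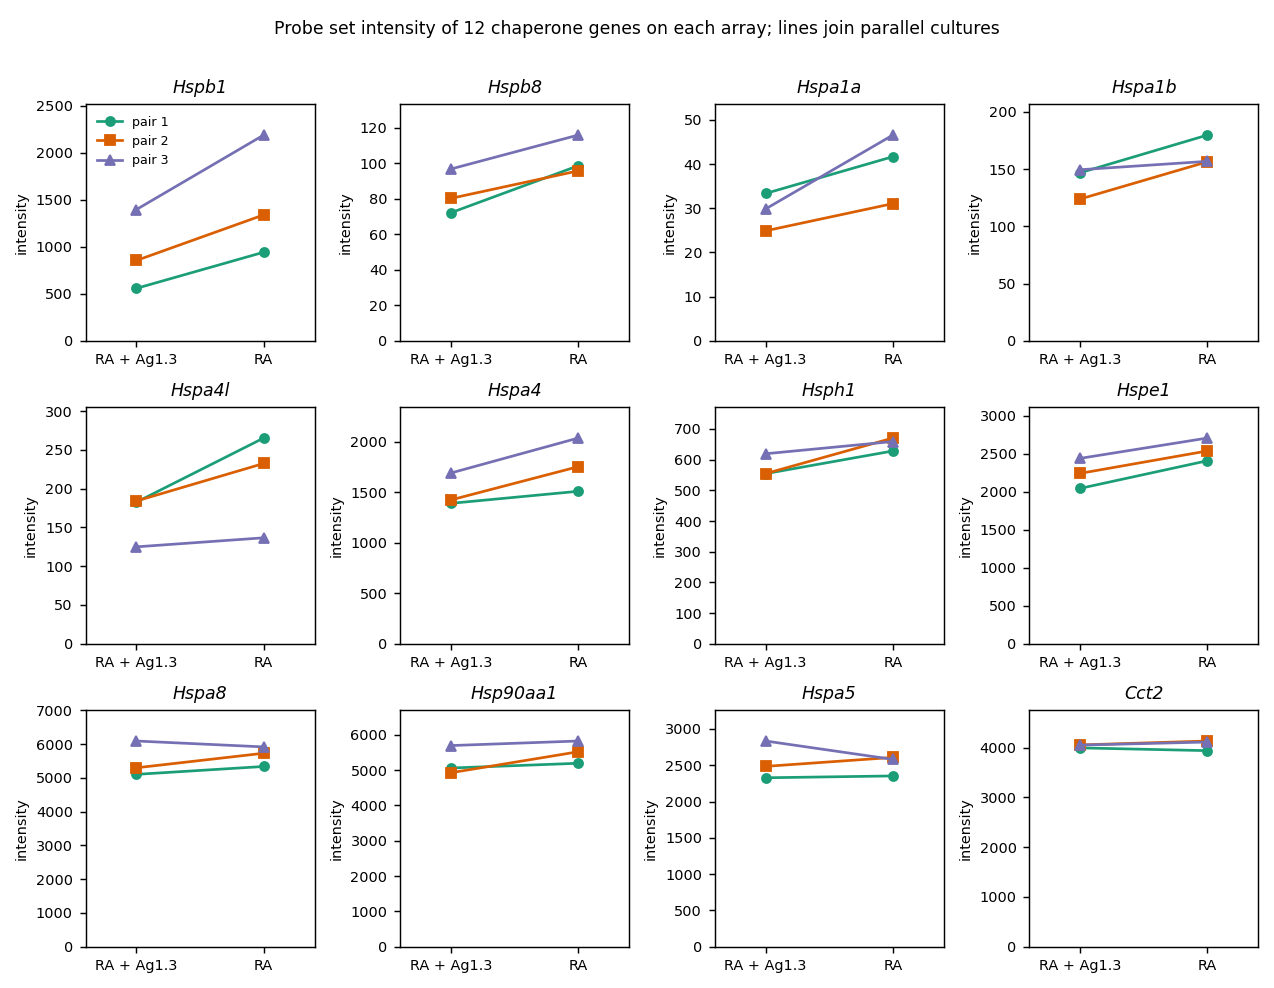
Probe set intensity of 12 chaperone genes on each array, RA + Ag1.3 left of RA, on axes that start at 0, with lines joining the parallel cultures of each pair. For Hspb1 the 3 pairs lie apart and each RA + Ag1.3 point is under its RA partner, whereas the lines of Hspa8, Hsp90aa1, Hspa5 and Cct2 are nearly level.

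For both Hsp90 genes measured, the chosen probe set had a 95% interval that spanned 0. Hsp90aa1, the inducible cytosolic form, read 5061, 4928 and 5697 with Ag1.3, against 5196, 5522 and 5826 without it (-0.08, 95% interval -0.27 to 0.11). Hsp90b1, the endoplasmic reticulum form, read 1972, 2037 and 2069 with Ag1.3, against 2044, 2018 and 2081 without it (-0.02, -0.20 to 0.17). Hsp90aa1 was lower in each pair, and the groups of both genes overlapped. A further bright probe set of Hsp90aa1 read 3268, 3421 and 3700 with Ag1.3, against 3876, 4039 and 4220 without it, with no overlap (-0.22, unadjusted p = 0.0291, adjusted p = 0.300 over all probe sets in limma). Another bright one gave -0.17 without overlap (unadjusted p = 0.0711 in limma), and the remaining further sets, both dim, gave 0.08 and 0.18.

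The mitochondrial chaperonin genes, whose promoter windows overlap, were both lower in every pair. Hspe1, the lid, read 2044, 2241 and 2438 with Ag1.3, against 2407, 2536 and 2706 without it, with overlap of 1 value per group (-0.19, SE 0.07, unadjusted p = 0.0481, adjusted p = 0.329). Hspd1, the barrel, read 3152, 3177 and 3306 with Ag1.3, against 3308, 3431 and 3449 without it. The highest Ag1.3 value, 3306.45, lay just under the lowest RA value, 3308.4, so the groups did not overlap, and the estimate was -0.08 (SE 0.07, adjusted p = 0.686).

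The cytosolic chaperonin, which folds actin and tubulin, varied little between groups. For its 7 ubiquitous subunits Cct2 to Cct8, with Cct6a, estimates ran from -0.09 for Cct8 to 0.03 for Cct7, with 95% intervals all within -0.31 to 0.23. Cct2 read 3995, 4055 and 4051 with Ag1.3, against 3939, 4133 and 4113 without it (-0.01), so the Ag1.3 values lay inside the RA range. Tcp1, the eighth subunit, whose symbol lies outside the rule, had an estimate of -0.04. Cct8l1, a gene related to the subunit Cct8, read 88.1, 75.4 and 66.0 with Ag1.3, against 48.9, 56.7 and 56.9 without it. Its groups did not overlap (0.39, SE 0.12, unadjusted p = 0.0172, adjusted p = 0.211), and it had a single probe set.

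By chosen probe sets, none of the 42 J-domain genes was called or had an unadjusted p under 0.05. Further probe sets of Dnaja3 (-0.31), Dnajb4 (-0.28) and Dnajc24 (-0.32) were lower with an unadjusted p under 0.05 in limma. A further set of Dnajc6, near background, was higher at that threshold (0.31). The median log2 fold change was -0.06 for the 4 type A genes, 0.05 for the 13 of type B and -0.01 for the 25 of type C. With 1 pair left out, these medians ran from -0.06 to -0.03, from 0.02 to 0.06 and from -0.06 to 0.01, and after spike scaling they were -0.25, -0.13 and -0.19, so the signs of types B and C depended on these choices. Dnajb1, the heat-inducible partner of Hsp70, read 436, 377 and 566 with Ag1.3, against 507, 487 and 496 without it, lower in 2 pairs and higher in pair 3 (-0.13, 95% interval -0.43 to 0.18). Dnaja1, a constitutive cytosolic partner, read 2619, 2658 and 2880 with Ag1.3, against 2629, 2809 and 2869 without it (-0.03, -0.21 to 0.16). Both genes overlapped between groups.

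The ends of the J-domain range were held by genes of low or variable signal. Dnajb13, a protein of axonemes, averaged 9.50 with Ag1.3 and 14.0 without it, both near background (-0.23, adjusted p = 0.358). Dnajb8, near background too, was the highest of type B at 0.18. Among type C, Dnajc25 read 52.3, 69.7 and 61.4 with Ag1.3, against 50.3, 52.4 and 46.1 without it (0.23, SE 0.09, adjusted p = 0.335). Dnajc13, an endosomal protein, read 328, 336 and 515 with Ag1.3, against 386, 451 and 505 without it (-0.20, SE 0.10, adjusted p = 0.454). Dnajc25 was higher in every pair and Dnajc13 lower in pairs 1 and 2 only.

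The 3 members with an ERSE in the promoter, Hspa5, Hsp90b1 and Dnajc3, all of the endoplasmic reticulum, had estimates of 0.02, -0.02 and 0.03. Among 20 other genes of the endoplasmic reticulum stress response, none was called, and 1 had an unadjusted p under 0.05. This was Herpud1, a component of degradation from that compartment, which read 394, 240 and 219 with Ag1.3, against 285, 218 and 192 without it (0.25, SE 0.09, adjusted p = 0.303 in limma). Eif2ak3, the stress sensor kinase PERK, had the next smallest p, with an estimate of -0.18 (adjusted p = 0.391).

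The members with a paired heat shock unit in the promoter were 19 of the 64 matched, and 14 of these had estimates below 0. Their median was -0.03, and that of the 45 without the unit was -0.00097, with 23 of 45 below 0. Both medians were small, and the standard errors of single members, 0.07 or more, do not give the uncertainty of a median. The difference between the medians was not tested. Of the 7 members with an unadjusted p under 0.05, Hspb1, Hspb8, Hspa1a and Hspe1, all lower, and Cct8l1, which was higher, held GAANNTTC. Hspa4 and Hspa4l, both lower, held neither pair. GAANNTTC was found in 15 of the 64 members (23.4%) and in 9.04% of 27025 genes. The 7 were picked by their p in these data, and a link of p to the motif was not tested. The match of Hspb8 lay just after the start. Of the 4 with 3 units, 3 had estimates below 0, with a median of -0.13, and Dnajb6 stood at 0.02.

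The 3 pairs of cultures differed in Hspb1 beyond the treatment difference. In a moderated F test of the pair terms in the same limma fit, 1 member passed the adjusted threshold, Hspb1 (adjusted p = 0.0253), against 2.33% of all genes. At an unadjusted p under 0.05, 16 members passed (20.8%), against 20.0% of all genes, so the share of the members was near that of all genes. For Hspb1 the pair means spanned 1.25 on the log2 scale, 750.7 in pair 1, 1098 in pair 2 and 1794 in pair 3. Hspa4l spanned 0.69, with its lowest mean in pair 3 (adjusted p of the pair test = 0.0775). Dnajc21, a protein of ribosome assembly, read 385, 333 and 527 with Ag1.3, against 379, 383 and 557 without it (adjusted p of the pair test = 0.0757). Its treatment estimate was -0.08, so pair 3 stood out in both groups. Dnajb12, an endoplasmic reticulum membrane protein, was highest in pair 1 (adjusted p of the pair test = 0.114). Hspb11 was highest in pair 3 (adjusted p of the pair test = 0.170), and Hspb3 (0.167) lay within the background range.

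**Figure D4:**
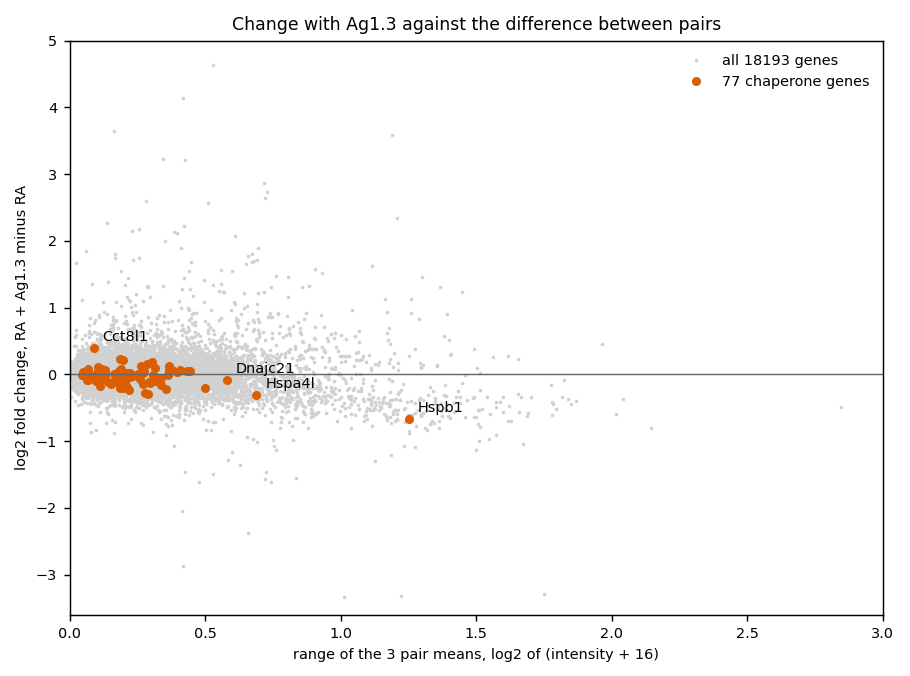
Log2 fold change (RA + Ag1.3 minus RA) against the range of the 3 pair means on the log2(intensity + 16) scale, for the 77 chaperone genes (orange) and all 18193 genes (grey). Hspb1, at 1.25 and -0.67, lies far from the other members, most of which sit near the origin.

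The partners of these chaperones were measured as companion lists, and none of their genes was called. The heat shock factor list had 4 measured genes of 5 (Hsf1 was not found), and 1 had an unadjusted p under 0.05. This was Hsf2bp, which encodes a protein that binds Hsf2 and is known for its role in meiotic recombination. It read 70.7, 92.9 and 184 with Ag1.3, against 113, 155 and 244 without it, lower in every pair, lowest in pair 1 and highest in pair 3 as Hspb1 was (-0.53, SE 0.09, unadjusted p = 0.00118, adjusted p = 0.0631). Hsf4 was near background. The missed call on Hsf2bp turned with the setting, since it passed under 6 of 12 alternatives.

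None of the 13 exchange factors and regulators of Hsp70 had an unadjusted p under 0.05. The smallest p values were those of Hyou1, an exchange factor of the endoplasmic reticulum, at 0.14 (adjusted p = 0.519) and Bag4 at -0.13 (adjusted p = 0.563). Of 16 measured Hsp90 co-chaperones, 1 had an unadjusted p under 0.05, and the median was -0.07, with 14 of 16 below 0. Ahsa2 read 301, 287 and 303 with Ag1.3, against 259, 249 and 233 without it (0.25, SE 0.08, adjusted p = 0.232), and its relative Ahsa1, an activator of the Hsp90 ATPase, read 800, 803 and 866 with Ag1.3, against 882, 935 and 995 without it (-0.18, SE 0.07, adjusted p = 0.336). Neither gene overlapped between groups, and they differed in direction.

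The 15 prefoldin and chaperonin partners and the 10 genes of mitochondrial proteases and import had no unadjusted p under 0.05. The lowest belonged to Tbcd, a tubulin folding cofactor, at 0.17 (adjusted p = 0.416) and Pfdn4, a prefoldin subunit, at 0.16 (adjusted p = 0.416). Among the mitochondrial genes they belonged to the protease subunit Clpp at -0.10 (adjusted p = 0.668) and the protease Yme1l1 at 0.11 (adjusted p = 0.715). The mitochondrial list had a median of -0.07, with 9 of 10 estimates below 0.

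The 77 genes had 193 probe sets, and 51 genes had more than 1. Of the 116 further probe sets, 19 had an unadjusted p under 0.05 (16.4%), 16 lower (13.8%) and 3 higher, in 13 genes. Among all 34945 probe sets with a single symbol, fitted together, 13.6% had an unadjusted p under 0.05 and 7.02% had it and were lower. Probe sets of a gene share the same 6 arrays. Those lower were of Hspb1, Hspb8, Hspa1b, Hspa4l, Hspe1, Hsph1, Hsp90aa1, Hspa9, Hspa12a, Dnaja3, Dnajb4 and Dnajc24. In that fit, 319 probe sets (0.913%) passed the adjusted threshold, and 1 of them was a further probe set of a member, Hspa12a, a distant Hsp70 relative enriched in brain. It read 121, 113 and 91.7 with Ag1.3, against 54.2, 47.0 and 50.6 without it, with no overlap (0.90, SE 0.10, adjusted p = 0.0295 over all these probe sets). The probe set chosen for Hspa12a read 265, 242 and 178 with Ag1.3, against 204, 266 and 191 without it (0.05, 95% interval -0.25 to 0.34). The other further sets of Hspa12a gave 0.45 and -0.27, both with means near background in at least 1 group, so the probe sets of this gene disagreed.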

How the data were processed

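RNA of 6 cultures was hybridized to Affymetrix 3′ expression arrays, which read mainly transcript 3′ ends, after labelling with a 3′ IVT kit, per the labels' protocols. The deposited values were linear probe set intensities, per the deposited table, while neither the labels nor the table name the summary method or say how arrays were scaled. Intensities were taken as log2(intensity + 16), which understates changes of dim genes. Control probe sets (64 of 45101) were left out. The 34945 probe sets with a single platform symbol gave 18193 genes, each represented by the probe set that was brightest on the mean log2 scale over all 6 arrays.

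The test was the moderated two-sided test of limma 3.58.1 (R 4.3.3), with treatment as the tested term and the replicate number as a block, and Benjamini-Hochberg adjustment over all genes. On simulated data the fit returned the simulated fold changes on average, while nearly all of the smaller ones and many of the larger ones missed the adjusted threshold. SE is the moderated standard error, and means ± SD are of intensities. The pairing comes from the series' design text. Arrays with equal numbers also deviated together from their group means (r = 0.538, 0.186 and 0.561 over genes, against -0.515 to 0.0726 for unequal numbers). No array duplicated another.

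The members, classes, companion and marker lists were chosen with earlier results of these data known. Named members were those past the threshold, the 12 with the smallest p among those with 1 direction in all 3 pairs, the ends of each class, a set chosen by role, the 6 with the smallest pair p, and the leading genes of each companion list. Others are named as ends of a range or in small counts, after their values were seen. The 12 alternatives changed the pseudocount, the block, the pairs kept, the scaling, a filter, the variance trend and the probe set rule. Promoter sequences are from RefSeq (GRCm38.p6), matched by symbol, while the array values name no genome build.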

Additional observations from a re-analysis of the deposited data

How the results depend on the processing

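Direction was kept by Hspb1 under all 12 alternatives, with log2 fold changes from -0.64 to -0.70 except -0.86 after scaling to the spikes. Its adjusted p in limma was 0.144 with a pseudocount of 1 and 0.812 with no replicate block, and 0.0872 to 0.182 without 1 pair. The number of chaperone genes called, 1, was 0 with a pseudocount of 1 (6 at an unadjusted p under 0.05), 0 with no replicate block (1 unadjusted), 0 to 0 without 1 pair (3 to 8 unadjusted), 3 with a variance trend (Hspb1, Hspa4 and Hspe1) and 7 with spike scaling (Hspb1, Hspb8, Hspa1a, Hspa4l, Hspa4, Hspe1 and Hspa1b). The 7 with an unadjusted p under 0.05 became 11 with a pseudocount of 64, 13 with the trend and 13 with the mean of all probe sets. Of all genes, 16.7%, 16.6% and 14.8% passed at those settings, against 14.9% in the main fit. With spike scaling 30 members passed, where 30.4% of all genes did. Without the block 7.41% of all genes passed, and without 1 pair 8.68% to 16.7% did. The count over all genes, 252, was 0 with a pseudocount of 1 (13.3% unadjusted), 831 with 64, 86 with no replicate block, 35 to 62 without 1 pair, 951 above the median probe set, 891 with the trend and 1686 with spike scaling. The pair test called 0 members with a pseudocount of 1, 3 with 64, 4 with spike scaling, 4 with the filter and 9 with the trend, against 1. Its share over all genes under these settings is not given here, so these counts cannot be read as particular to the members. The member median of -0.0156 was -0.0130 to -0.0483 without 1 pair and -0.201 with spike scaling, where that of all genes was -0.157. The heat shock factor list gained 1 call (Hsf2bp) with a pseudocount of 64, quantile or median scaling, spike scaling, the filter and the trend, and the Hsp90 co-chaperones gained 1 (Ahsa1) with spike scaling. Leaving out a pair leaves fewer samples, and the cause of the other shifts was not tested. Of 367 values of the 31 named members, 354 kept their side of the threshold, 5 lost it and 8 gained it. Estimates with no call changed sign in 19 cases, the largest of them 0.184 in size. The direction of small differences depends on the level taken as equal between arrays. Dim members near background had no usable direction, and 3 arrays per group limit what the rest can show.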
